A study of Mus musculus with 13 samples.

Results

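Adenomas of the mouse small intestine were compared with the normal crypt epithelium beside them that carried a high level of FP. The comparison used 7 of the 13 arrays in the series, the 3 titled adenoma and the 4 titled FP-high, chosen by title alone; FP is not spelled out in the labels. Every sample came from Apc mutant mice crossed with transgenic mice expressing FPs, so normal and adenoma samples share the mutant background and the transgene. Ages, sexes, the Apc allele and the promoter behind the FP transgene were not given in the labels, and neither was which arrays share an animal. P-values therefore measure only the spread between these samples, which may be technical. Crypts were picked by glass capillary. Their RNA was purified (NucleoSpin RNA XS), amplified (NuGEN Ovation One-Direct), labelled with biotin and read on Affymetrix mouse gene arrays, with an array for each sample. The values are deposited log2 levels per probe set, and a difference of 1 between group means is a doubling on that scale.

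APC is a scaffold of the complex that marks beta-catenin for destruction. When it is lost, beta-catenin accumulates and, with TCF factors, keeps transcribing Wnt target genes, and crypt cells go on dividing instead of maturing into absorptive enterocytes. Intestinal epithelium recovering from injury, and some tumours, also express a set of genes typical of fetal gut, among them annexins and clusterin. Mature enterocytes are marked instead by digestive enzymes, lipid carriers and enzymes that process retinoids and foreign compounds.

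Before the results, FP-high 1 has to be set apart. Its log2 values had an SD of 1.11, against 1.75 to 1.91 in the other 6 arrays, and it had 222 probe sets above 9 on the log2 scale where the others had 717 to 891. It correlated with the others at 0.707 to 0.746, while the other 6 correlated with each other at 0.921 to 0.983. Bright epithelial genes read low in it. Krt8, a keratin of simple epithelia, was at 8.65 in FP-high 1, at 12.04, 12.01 and 11.65 in FP-high 2, 3 and 4, and at 12.14, 12.71 and 12.43 in the adenomas. Epcam, the adhesion molecule of epithelial cells, was at 7.58 in FP-high 1 and between 8.85 and 9.33 in the other 6 arrays. With FP-high 1 the median difference between adenoma and FP-high samples was -0.29 among the dimmest probe sets and 0.44 among the brightest, split by mean level into 4 equal bins. Without it these medians were -0.09 and 0.03, so differences are given with and without that array. Sex-linked transcripts also differed. Xist, the RNA that silences an X chromosome in female cells, was at 3.61, 3.05, 2.65 and 8.64 in FP-high 1 to 4 and at 9.71, 8.88 and 8.98 in the adenomas. The Y-linked gene Eif2s3y was at 4.43, 5.34, 6.00 and 2.25 in the FP-high arrays and at 2.03, 2.22 and 2.01 in the adenomas. FP-high 4 thus had the Xist and Eif2s3y levels of the adenomas, and whatever goes with these transcripts in the other 3 normal arrays cannot be told apart from the group.

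On 7 arrays every called transcript was higher in adenomas, while without FP-high 1 calls were made in both directions. Of 21789 probe sets with 1 gene symbol, limma called 46 higher in adenomas at an adjusted p under 0.05, which is 0.211% of those tested and covers 42 genes. None was called lower (0%; smallest adjusted p on that side 0.0925), while 1338 were higher and 649 lower at an unadjusted p under 0.05. Without FP-high 1, 81 were called higher (0.372%) and 16 lower (0.0734%), and 43 of the higher calls were common to both fits. In that fit 1680 were higher and 1737 lower at an unadjusted p under 0.05, so the surplus of higher transcripts at that level was not present without FP-high 1. All adenomas were above all normal arrays for 6.88% of probe sets and below them for 10.6% on 7 arrays, and for 8.48% and 15.6% without FP-high 1. Over all probe sets the median difference was -0.11 with FP-high 1 and -0.08 without it. The difference was above 0 for 40.3% of probe sets with FP-high 1 and for 37.8% without it, the shares beside which counts of list members by direction stand. The number of higher calls rested on single arrays. It was 8, 11 and 12 without FP-high 2, 3 and 4 and 12, 5 and 7 without adenoma 1, 2 and 3. With the replicate number as a fixed block, which leaves 2 residual degrees of freedom, limma called 0 probe sets (smallest adjusted p 0.062). In that fit 1460 were higher and 284 lower at an unadjusted p under 0.05, and FP-high 4, which has no adenoma of its number, adds nothing to it. With the number as a random block, 53 probe sets were called higher and 0 lower.

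**Figure D1:**
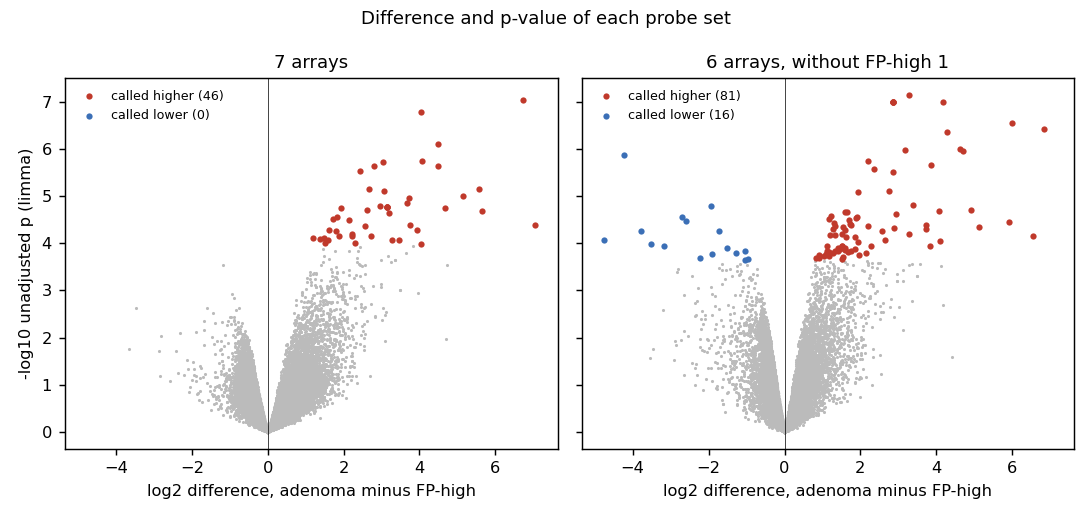
Each point is a probe set, with the log2 difference in mean level (adenoma minus FP-high) on the x axis and -log10 of the unadjusted limma p on the y axis. On 7 arrays 46 probe sets were called higher and 0 lower; without FP-high 1 the counts were 81 and 16, and the blue points on the left appear.

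The genes with the largest gains have varied roles, from bile acid and amino acid transport to proteolysis. By rule, these 12 were taken as those called with and without FP-high 1 whose groups did not overlap, ordered by size of difference. They were Fabp6, Wfdc18, Slc38a4, Sptssb, Anxa10, Anxa1, Ctse, Serpinb5, Clu, Tmigd1, Mboat1 and Mcpt2, with differences from 7.05 to 3.68 and adjusted p from 0.00177 to 0.0358. In all 18 fits run, each of the 12 that was tested had a higher mean in adenomas. The rule asked for groups that did not overlap, so this direction was largely fixed in advance. FP-high 1 was the highest of the normal arrays for 9 of the 12 and the lowest for 1, Fabp6. Without it the differences ran from 3.72 to 6.84. None was called with the replicate number as a fixed block, which leaves 2 residual degrees of freedom (adjusted p 0.062 to 0.313). All 12 were called with it as a random block.

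**Figure D2:**
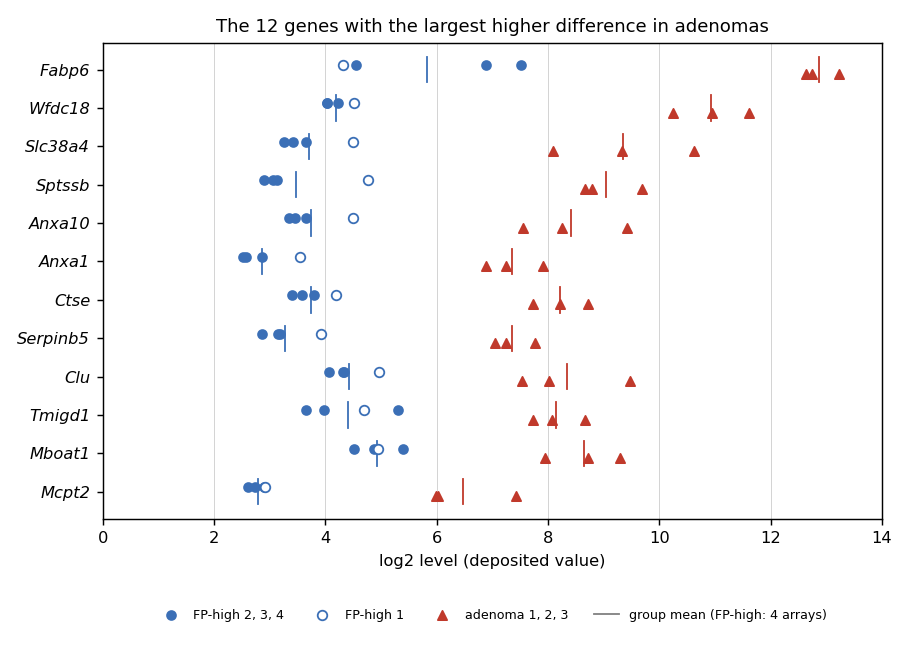
Deposited log2 level (x axis) of the 12 genes in each array: filled circles are FP-high 2, 3 and 4, open circles FP-high 1, triangles the adenomas, and bars the group means. All 3 adenomas lie to the right of all 4 normal arrays in each row, as the rule that chose the genes required.

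Promoters are shown for genes called in opposite directions, so that the letters in front of each can be compared. The sets were chosen by their direction, which therefore says nothing about shared control. Each line gives the 250 bases before the gene start, 5′ to 3′ in the sense of the gene, from RefSeq on GRCm38.p6, with motif matches in capitals. Wfdc18 (chr11:83708754-83709003, plus strand), Anxa1 (chr19:20390672-20390921, minus strand) and Anxa10 (chr8:62123194-62123443, minus strand) were higher in adenomas. Adh1 (chr3:138277335-138277584, plus strand) and Ugt2a3 (chr5:87337196-87337445, minus strand) were called lower without FP-high 1.
Wfdc18: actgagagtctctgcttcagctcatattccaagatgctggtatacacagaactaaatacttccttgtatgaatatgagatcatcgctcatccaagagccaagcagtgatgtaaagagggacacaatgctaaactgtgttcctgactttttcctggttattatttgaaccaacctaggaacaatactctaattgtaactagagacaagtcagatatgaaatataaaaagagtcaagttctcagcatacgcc
Anxa1: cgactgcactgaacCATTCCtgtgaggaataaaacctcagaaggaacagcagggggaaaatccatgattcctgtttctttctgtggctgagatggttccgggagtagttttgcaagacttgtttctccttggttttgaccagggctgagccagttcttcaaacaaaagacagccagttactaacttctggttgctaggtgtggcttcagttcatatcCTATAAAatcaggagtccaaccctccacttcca
Anxa10: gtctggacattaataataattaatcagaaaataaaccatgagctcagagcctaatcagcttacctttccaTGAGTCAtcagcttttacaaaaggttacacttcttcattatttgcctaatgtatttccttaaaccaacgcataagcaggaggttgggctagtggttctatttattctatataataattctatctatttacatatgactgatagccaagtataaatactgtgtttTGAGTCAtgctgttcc
Adh1: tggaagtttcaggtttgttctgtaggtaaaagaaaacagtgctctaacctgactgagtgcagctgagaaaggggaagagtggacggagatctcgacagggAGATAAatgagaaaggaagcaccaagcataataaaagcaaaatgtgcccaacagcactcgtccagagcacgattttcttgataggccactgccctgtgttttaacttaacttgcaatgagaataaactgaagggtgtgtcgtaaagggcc
Ugt2a3: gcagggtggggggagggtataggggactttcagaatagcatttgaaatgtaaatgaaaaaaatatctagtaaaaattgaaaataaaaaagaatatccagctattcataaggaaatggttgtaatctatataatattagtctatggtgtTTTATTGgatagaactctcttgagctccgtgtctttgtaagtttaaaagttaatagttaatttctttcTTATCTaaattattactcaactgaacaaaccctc

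On both strands, 7 motifs were searched in these windows and in all 32851 windows of the same length. They were CTTTGAT for TCF and LEF factors, TGANTCA for AP-1, GGAATG for TEAD, TTTATNG for CDX, AGATAA for GATA, CAAAGTCCA for HNF4 and the HNF1 motif. Windows with a match were counted, and a motif may overlap another. Windows were on hand for 9 of the 12 higher genes (12 windows) and for 11 of the 14 lower genes described further on (15 windows). CTTTGAT was in 0 of the 12 and 0 of the 15 windows, and in 3.21% of all windows. TGANTCA was in 3 of the 12 windows (Anxa10, Serpinb5 and Tmigd1), in 1 of the 15 (Aldh1a1) and in 6.75% of all. In the Anxa10 window it starts at positions -180 and -16 from the gene start. AGATAA was in 1 of the 12 and in 5 of the 15 windows (Adh1, Aldh1a1, Gm11437, Nabp2 and Ugt2a3), against 9.99% of all. TTTATNG was in 1 of the 12 and 4 of the 15 (Adh6a, Nabp2, Sis and Ugt2a3), against 9.81%, and GGAATG in 2 and 3, against 12.6%. The HNF1 and HNF4 motifs were in none of these windows and in 0.371% and 0.384% of all. A match is a run of letters and not a measured binding site.

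Secreted proteins, proteases and their inhibitors are described first. Wfdc18, a small secreted protein of the whey acidic protein family, was at 4.51, 4.03, 4.03 and 4.22 in the FP-high arrays and at 11.62, 10.95 and 10.24 in the adenomas. The normal arrays lay close together, and the whole adenoma group stood above them by a log2 difference of 6.74 ± 0.33 (SE, adjusted p = 0.00177), or 6.84 ± 0.33 without FP-high 1 (adjusted p = 0.00106). Its call held in all 7 fits that left out 1 array, and with the fixed block the adjusted p was 0.062. Among the 17 measured genes of the WAP-domain family it was the only called member in both fits. Over all probe sets 0.211% were called higher, and 0.372% without FP-high 1. Wfdc17, its neighbour in name, was at 3.23 to 3.59 in normal arrays and 4.75 to 6.36 in adenomas (2.15 ± 0.36, adjusted p = 0.121; 2.11 ± 0.39 without FP-high 1). The median difference over the family was -0.12, close to that of all probe sets.

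Ctse, the aspartic protease cathepsin E of gastric and other surface epithelia, was at 4.18, 3.57, 3.40 and 3.79 in the normal arrays and at 8.21, 8.71 and 7.72 in the adenomas. It rose by 4.48 ± 0.29 (adjusted p = 0.0058; 4.63 ± 0.26 without FP-high 1, adjusted p = 0.00204), and its call held without any 1 array. Serpinb5, the serpin maspin, was at 3.92, 3.15, 3.18 and 2.86 against 7.04, 7.76 and 7.25. It rose by 4.07 ± 0.30 (adjusted p = 0.00719; 4.29 ± 0.21 without FP-high 1). Clu, the secreted chaperone clusterin, was at 4.96, 4.32, 4.06 and 4.33 against 9.48, 8.01 and 7.53, with adenoma 1 the highest. It rose by 3.92 ± 0.47 (adjusted p = 0.0358; 4.10 ± 0.48 without FP-high 1, adjusted p = 0.0334). Tmigd1, an immunoglobulin-domain adhesion protein, rose by 3.74 ± 0.43 (adjusted p = 0.0309; 3.84 ± 0.46 without FP-high 1, adjusted p = 0.0377).

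Transporters and lipid enzymes formed another group. Slc38a4, which carries small neutral amino acids into cells, was at 4.50, 3.41, 3.25 and 3.65 in the normal arrays and at 10.62, 9.33 and 8.10 in the adenomas. The adenomas differed among themselves by more than the normal arrays did, and the difference was 5.65 ± 0.59 (adjusted p = 0.0197; 5.91 ± 0.59 without FP-high 1, adjusted p = 0.0228). It was the only called member of 16 amino acid transporters of growing cells in both fits, and their median was 0.39 (0.24 without FP-high 1). Over all probe sets 0.211% were called higher, and 0.372% without FP-high 1. Sptssb, a small subunit of serine palmitoyltransferase, which makes the first sphingoid base, was at 4.76, 2.90, 3.07 and 3.13 against 8.79, 9.68 and 8.66. FP-high 1 lay well above the other normal arrays, and leaving it out took the difference from 5.58 ± 0.50 (adjusted p = 0.0153) to 6.01 ± 0.28 (adjusted p = 0.000899). It too was the only called member of its list in both fits, the 25 genes of sphingolipid synthesis and breakdown (median 0.65, or 0.21 without FP-high 1). Mboat1, an acyltransferase of lysophospholipids, rose by 3.71 ± 0.35 (adjusted p = 0.0181; 3.72 ± 0.38 without FP-high 1, adjusted p = 0.0237).

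Of these 12 genes only Wfdc18 and Ctse kept their call when any 1 array was left out. Anxa1 was called in 6 of the 7 such fits, Serpinb5 in 5, and the other 8 in 2 or fewer. Without FP-high 2, 3 or 4 the number of the 12 that lost their call was 8, 6 and 8, and without adenoma 1, 2 or 3 it was 6, 9 and 8, with adjusted p up to 0.179. None could lose it without FP-high 1, since the rule that chose the 12 required that call. That fit is counted among the 7.

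Of the bile acid genes of the ileum, 2 of 14 were called, both higher in adenomas, in each fit. Over all probe sets 0.211% were called higher, and 0.372% without FP-high 1. Fabp6, the ileal carrier of bile acids, was at 4.32, 6.88, 7.51 and 4.55 in the normal arrays and at 12.63, 12.74 and 13.23 in the adenomas. The normal arrays spread over more than 3 log2 units and the adenomas lay close together, and the difference was 7.05 ± 0.81 (adjusted p = 0.0309; 6.55 ± 0.73 without FP-high 1, adjusted p = 0.0279). Slc10a2, the apical transporter that takes bile acids up, was at 3.63, 3.05, 3.15 and 3.27 against 6.61, 6.00 and 6.37. It rose by 3.05 ± 0.23 (adjusted p = 0.00719; 3.17 ± 0.18 without FP-high 1) and was called in 6 of the 7 fits that left out 1 array. The other members of this list of 14 were not called. Nr1h4, the bile acid receptor FXR, had all adenomas above all normal arrays (1.28, or 0.68 without FP-high 1, adjusted p = 0.176). Fgf15, the hormone released on bile acid uptake, was at 4.52, 5.32, 5.20 and 5.39 against 5.11, 5.43 and 5.55, and the basolateral exporter subunit Slc51b at 4.87, 8.51, 8.57 and 6.59 against 7.55, 7.36 and 8.62. These overlapped between the groups. The list's median was -0.03, or -0.21 without FP-high 1. The labels place all samples in the small intestine and give no position along it, so position and group cannot be told apart.

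Genes of the fetal-like and regenerative state gave the largest shift of the 30 pathway lists. The list was drawn up with earlier results of these data known, so its counts are not independent evidence of direction. Of 22 measured members, 21 had a higher mean in adenomas (20 without FP-high 1), against 40.3% of all probe sets (37.8%). Their median difference was 2.56, or 2.22 without FP-high 1. Limma called 6 of them higher, Anxa10, Anxa1, Ctse, Gkn3, Clu and Anxa3, against 0.211% of all probe sets. Without FP-high 1 it called 7, against 0.372%, as Gkn3 left (adjusted p = 0.0553) and S100a6 and Il1rn joined. All 3 adenomas were above all normal arrays for 15 of the 22, against 6.88% of all probe sets, and for 17 without FP-high 1, against 8.48%.

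Anxa1, a phospholipid-binding annexin that dampens inflammation, was at 3.54, 2.51, 2.57 and 2.85 in the normal arrays and at 6.89, 7.25 and 7.91 in the adenomas (4.48 ± 0.34, adjusted p = 0.00719; 4.70 ± 0.27 without FP-high 1, adjusted p = 0.00204). Anxa10, an annexin best known from the stomach, was at 4.49, 3.46, 3.64 and 3.35 against 7.55, 9.42 and 8.25 (4.67 ± 0.48, adjusted p = 0.0184; 4.92 ± 0.45 without FP-high 1). Both stood clear of every normal array. S100a6, a calcium-binding protein of dividing cells, was at 4.20, 7.52, 7.04 and 6.01 against 10.76, 11.02 and 11.01. The adenomas lay close together, the normal arrays did not, and it passed only without FP-high 1 (4.73 ± 0.74, adjusted p = 0.0925; 4.07 ± 0.37 without it, adjusted p = 0.0187). Gkn3, a gastrokine of the stomach lining, was at 4.99, 3.34, 5.72 and 4.91 against 9.25, 8.60 and 8.49 (4.04 ± 0.54, adjusted p = 0.0495; 4.12 ± 0.59 without FP-high 1, adjusted p = 0.0553), a call that no fit without 1 array kept. Il1rn, the interleukin 1 receptor antagonist, was at 5.14, 4.27, 4.36 and 4.50 against 5.60, 5.63 and 5.59 (1.04 ± 0.24, adjusted p = 0.265; 1.23 ± 0.12 without FP-high 1, adjusted p = 0.021). Krt23, a keratin named here after its values were seen, was at 4.68, 6.40, 5.79 and 5.45 against 9.74, 9.76 and 8.20 (3.65 ± 0.52, adjusted p = 0.0673; 3.35 ± 0.47 without FP-high 1, adjusted p = 0.0538). Msln was the member below 0 on 7 arrays (-0.32, or -0.34 without FP-high 1).

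**Figure D3:**
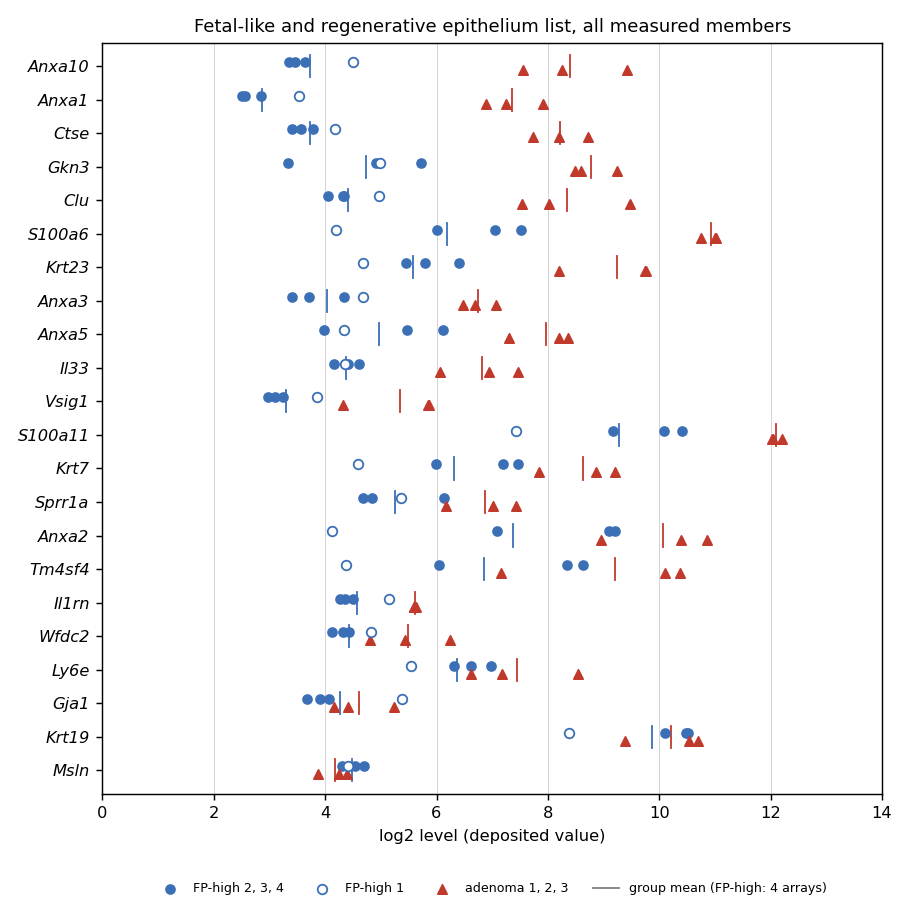
Deposited log2 level (x axis) of the 22 measured members of the fetal-like and regenerative list in each array, ordered by difference without FP-high 1; symbols as in the plot of the 12 genes. From Anxa10 to Vsig1 the triangles lie to the right of every circle, while Krt19 and Msln at the bottom overlap.

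The wider annexin and S100 families overlap with that list. Of 27 measured members, 25 had a higher mean in adenomas (24 without FP-high 1), against 40.3% of all probe sets (37.8%). Their median was 0.88, or 0.62 without FP-high 1. Limma called 4 with FP-high 1, namely Anxa1, Anxa10, Anxa3 and S100a14, and 4 without it, where S100a6 took the place of S100a14. Over all probe sets 0.211% were called higher with FP-high 1 and 0.372% without it. S100a14, a member of epithelial surfaces, was at 4.05, 4.20, 4.21 and 3.79 in the normal arrays and 6.26, 7.63 and 8.14 in the adenomas (3.28 ± 0.42, adjusted p = 0.0439; 3.28 ± 0.47, adjusted p = 0.0541 without FP-high 1). Anxa3 was at 4.68, 4.33, 3.40 and 3.71 against 6.47, 6.70 and 7.07 (2.72 ± 0.34, adjusted p = 0.0418; 2.93 ± 0.28, adjusted p = 0.0206 without FP-high 1). Each of these calls was made in only 1 of the 7 fits that left out an array. S100a11, another S100 protein, named after its values were seen, was at 7.42, 10.08, 9.17 and 10.40 against 12.20, 12.03 and 12.04 (2.82 ± 0.67, adjusted p = 0.283; 2.21 ± 0.31, adjusted p = 0.0541 without FP-high 1). Anxa2 overlapped between the groups, with adenoma 1 at 8.96 beside FP-high 2 and 3 at 9.09 and 9.21 (2.69, or 1.60 without FP-high 1). The list of YAP and TEAD targets, another program tied to regeneration, had a median of -0.03 with 0 of 17 called, its lowest adjusted p being 0.264, and 0 called without FP-high 1. F3, tissue factor, was at 1.61 ± 0.38 (1.84 ± 0.32 without FP-high 1) and the factor Tead1 at 1.58 ± 0.36 (1.29 ± 0.24).

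Apc itself was at 5.48, 5.59, 5.79 and 6.21 in the normal arrays and at 6.39, 5.94 and 5.89 in the adenomas (0.30 ± 0.24, adjusted p = 0.592; 0.21 without FP-high 1). The groups overlapped, and the labels do not say which part of the gene is altered or whether the probe set lies in it, so this value does not check the genotype. Of the 18 measured genes of the destruction complex and its partners, Apc included, 0 were called, with a median of 0.44 and, without FP-high 1, 0.21. The poly-ADP-ribosylating enzyme Tnks2, which marks axin for degradation, was at 1.38 ± 0.59 (adjusted p = 0.547; 0.94 ± 0.44 without FP-high 1) and the beta-catenin cofactor Bcl9 at 0.87 ± 0.38 (0.65 ± 0.34).

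Wnt target genes differed among themselves and 0 of 31 were called with or without FP-high 1, although 7 had an unadjusted p under 0.05 in each fit. By mean, 25 were higher in adenomas (20 without FP-high 1), against 40.3% of all probe sets (37.8%). The median of the list was 0.29 (0.21). All adenomas were above all normal arrays for 7 and below them for 1, against 6.88% and 10.6% of all probe sets. Without FP-high 1 these were 8 and 3, against 8.48% and 15.6%. Cd44, the hyaluronan receptor of crypt base cells, was at 4.43, 4.72, 6.07 and 5.12 in the normal arrays and at 7.56, 7.33 and 7.80 in the adenomas (2.48 ± 0.39, adjusted p = 0.0946; 2.26 ± 0.35, adjusted p = 0.0621 without FP-high 1). Lgr5, the R-spondin receptor of crypt stem cells, was at 4.91, 5.64, 5.62 and 5.86 against 8.42, 7.02 and 7.10 (2.0 ± 0.40, adjusted p = 0.182; 1.80 ± 0.38 without FP-high 1). In both genes the groups were apart.

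The members that follow were named after their values were seen. Prox1, a homeobox factor, was at 4.63, 3.11, 3.02 and 3.78 in the normal arrays and at 8.14, 6.38 and 5.48 in the adenomas (3.03 ± 0.67, adjusted p = 0.239; 3.36 ± 0.65 without FP-high 1, adjusted p = 0.11). Nkd1, a feedback inhibitor of Wnt signalling, was at 4.58, 4.71, 4.55 and 5.01 against 8.14, 6.89 and 5.47 (2.12 ± 0.56, adjusted p = 0.339; 2.07 ± 0.63 without FP-high 1, adjusted p = 0.223). Both were highest in adenoma 1 and lowest in adenoma 3, as a description of 3 samples. Axin2, the most used Wnt reporter gene, overlapped between the groups, at 4.39, 5.79, 6.66 and 5.79 against 5.90, 5.84 and 5.77, and its difference turned from 0.18 to -0.24 when FP-high 1 was left out. Myc was at 1.25 ± 0.50 (0.85 without FP-high 1) and Sox9 at 0.90 ± 0.31 (0.66), neither called.

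Stem cell markers differed among themselves as well, with 0 of 20 called and a median of 0.26 (0.14 without FP-high 1). Prom1, a membrane glycoprotein of crypt base cells, was at 4.58, 7.28, 7.71 and 8.33 in the normal arrays and at 10.06, 9.25 and 9.24 in the adenomas (2.54 ± 0.84, adjusted p = 0.455; 1.74 ± 0.34, adjusted p = 0.11 without FP-high 1). Olfm4, a secreted product of crypt base columnar cells, named after its values were seen, ran the other way, at 6.61, 9.74, 10.22 and 10.08 against 5.07, 6.65 and 9.58. Adenoma 3 kept a level near that of FP-high 2 to 4 while adenoma 1 did not, and the difference was -2.06 ± 1.25 (adjusted p = 0.576), or -2.92 ± 1.05 without FP-high 1 (adjusted p = 0.276). These are whole-sample levels, in which fewer cells of a type and less RNA per cell cannot be told apart.

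With every array weighted alike, no gene was called lower on 7 arrays, and lower calls appeared when FP-high 1 was left out. A fit on 7 arrays that weights each array by its fit, giving FP-high 1 a weight of 0.079, called 46 lower. Without FP-high 1, 16 probe sets of 16 genes were called lower, and 14 of these are the brightest probe set of their gene. They were named after their values were seen and are Ugt2a3, Adh6a, Rdh7, Adh1, Ces1f, Arg2, Aldh1a1, Gm11437, Otc, Sis, Hnf4g, Clic5, Idh3g and Nabp2, with differences from -4.76 to -1.04 and adjusted p from 0.00231 to 0.0499. FP-high 1 was the lowest of the normal arrays for all 14 and read at or below the highest adenoma for 12. With it included, none passed (adjusted p 0.239 to 0.985) and Idh3g turned to 0.05. With the fixed block on all 7 arrays the adjusted p was 0.419 to 0.931. Leaving out a further array kept 2 of the 16 calls for FP-high 2, 6 for FP-high 3, 4 for FP-high 4, 4 for adenoma 1, 1 for adenoma 2 and 3 for adenoma 3.

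**Figure D4:**
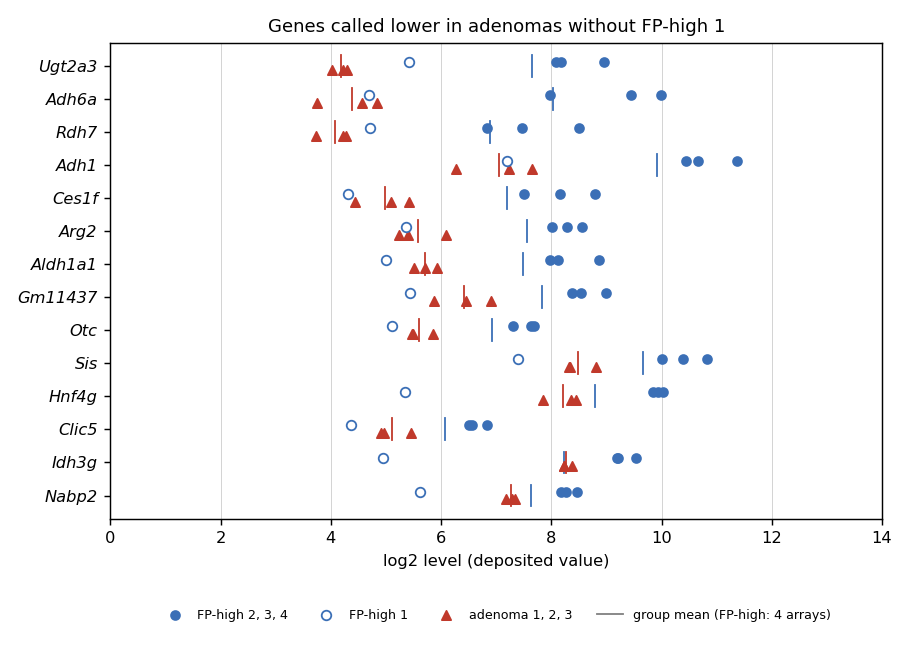
Deposited log2 level (x axis) of the 14 genes called lower in adenomas without FP-high 1, in each array; symbols as in the plot of the 12 genes. The open circle of FP-high 1 lies to the left of the filled circles in all 14 rows, and FP-high 2, 3 and 4 lie to the right of the adenomas.

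Enzymes that process alcohols, retinoids and foreign compounds were 6 of these 14 genes: Ugt2a3, Adh6a, Rdh7, Adh1, Ces1f and Aldh1a1. Ugt2a3, a UDP-glucuronosyltransferase, was at 5.42, 8.17, 8.96 and 8.08 in the normal arrays and at 4.03, 4.22 and 4.29 in the adenomas. The groups were apart even with FP-high 1, and without it the difference was -4.22 ± 0.25 (adjusted p = 0.00231; -3.48 ± 0.77, adjusted p = 0.239 with it). Adh1, the class I alcohol dehydrogenase that also oxidises retinol, was at 7.20, 10.66, 11.37 and 10.44 against 6.27, 7.64 and 7.24. FP-high 1 fell among the adenomas, and the difference was -3.78 ± 0.40 without it (adjusted p = 0.0251) and -2.87 ± 0.96 with it (adjusted p = 0.464). Adh6a, another alcohol dehydrogenase, was at 4.69, 9.44 and 7.98 in FP-high 1, 2 and 4, highest in FP-high 3, and at 3.75, 4.56 and 4.83 in the adenomas (-4.76 ± 0.55, adjusted p = 0.0319 without FP-high 1; -3.65 ± 1.19, adjusted p = 0.446 with it). The carboxylesterase Ces1f was at 4.32, 8.15, 7.50 and 8.79 against 5.09, 5.41 and 4.45 (-3.17 ± 0.38, adjusted p = 0.0377 without FP-high 1; -2.21 ± 1.00 with it, adjusted p = 0.557).

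The list of xenobiotic metabolism as a whole showed the deepest median of the 30 pathway lists. Of 36 members, 27 were lower by mean in adenomas with FP-high 1 (median -0.52, 0 called) and 31 without it (median -1.06, 3 called lower, Adh1, Adh6a and Ces1f). Over all probe sets without FP-high 1, 0.0734% were called lower and 37.8% lay above 0. Without FP-high 1, all adenomas were below all normal arrays for 21 of the 36, against 15.6% of all probe sets; with it this held for 4, against 10.6%. Cyp3a11, a drug-oxidising cytochrome, named after its values were seen, spread widely among the normal arrays, at 4.27, 6.50, 10.11 and 4.78 against 3.52, 3.78 and 3.45 (-2.83 ± 1.30, adjusted p = 0.558; -3.55 ± 1.24 without FP-high 1, adjusted p = 0.267). Ces1e, which the rule named, was at 5.15, 5.96, 5.43 and 5.65 against 4.76, 4.57 and 4.41 (-0.97 ± 0.23, adjusted p = 0.286; -1.10 ± 0.18, adjusted p = 0.0689 without FP-high 1).

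Retinoid genes included steps on the way from retinol to retinoic acid. Without FP-high 1, 3 of 23 were called lower, against 0.0734% of all probe sets: Adh1, Rdh7 and Aldh1a1. Rdh7, a retinol dehydrogenase, was at 4.71, 6.84, 8.51 and 7.46 in the normal arrays and at 4.28, 4.21 and 3.74 in the adenomas (-3.53 ± 0.42, adjusted p = 0.0365 without FP-high 1; -2.80 ± 0.80, adjusted p = 0.39 with it). Aldh1a1, a dehydrogenase that makes retinoic acid, was at 5.01, 8.11, 8.86 and 7.97 against 5.92, 5.71 and 5.51 (-2.60 ± 0.26, adjusted p = 0.0222; -1.77 ± 0.85 with it). Lrat, which esterifies retinol for storage, was at 4.49, 5.62, 5.39 and 6.03 against 4.05, 4.17 and 4.51 and missed the threshold (-1.44 ± 0.21, adjusted p = 0.0567 without FP-high 1; -1.14 ± 0.36, adjusted p = 0.436 with it). The list's median was -0.30 with FP-high 1 and -0.18 without it.

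Brush border and nutrient genes had fewer calls. Sis, the sucrase-isomaltase of the brush border, was at 7.39, 10.40, 10.82 and 10.01 in the normal arrays and at 8.81, 8.31 and 8.34 in the adenomas (-1.92 ± 0.25, adjusted p = 0.0422 without FP-high 1; -1.17 ± 0.78, adjusted p = 0.576 with it). FP-high 1 read below every adenoma here. Sis was the only call among 23 brush border enzymes, against 0.0734% of all probe sets called lower without FP-high 1. The median of these enzymes was -0.78 without FP-high 1 and -0.29 with it. Lct, the lactase, was at 5.76, 6.56, 8.99 and 4.86 against 4.47, 4.55 and 4.29 (-2.11 ± 0.88, adjusted p = 0.544; -2.37 ± 0.95 without FP-high 1), with no overlap and a wide spread among normal arrays. Of 23 genes of lipid absorption 22 were lower by mean without FP-high 1 (median -0.60) and 16 with it (-0.30), and 0 were called in either fit. Over all probe sets 37.8% lay above 0 without FP-high 1 and 40.3% with it. Apoc3, an apolipoprotein of chylomicrons, named after its values were seen, was at 5.26, 10.31, 11.10 and 7.78 against 6.08, 7.06 and 7.48 (-2.85 ± 0.86, adjusted p = 0.223 without FP-high 1; -1.74 ± 1.33, adjusted p = 0.588 with it). Mttp, which loads lipid onto apolipoprotein B, and Fabp1, a fatty acid carrier, chosen in the same way, differed by -2.05 ± 0.58 and -1.15 ± 0.26 without FP-high 1 and by -1.31 ± 0.89 and -0.88 ± 0.36 with it, all uncalled.

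The uptake list of enterocytes held a call in the other direction, where 0.211% of all probe sets were called higher (0.372% without FP-high 1). Slc34a2, a sodium-phosphate cotransporter, rose from 3.94, 4.46, 4.79 and 4.28 to 6.26, 6.05 and 6.41 (1.88 ± 0.23, adjusted p = 0.0418; 1.74 ± 0.18, adjusted p = 0.0236 without FP-high 1), a call made in 1 of the 7 fits that left out an array. The median of its 20 members was -0.49, or -0.61 without FP-high 1. Slc2a2, the basolateral glucose transporter, was at 4.77, 5.42, 5.77 and 5.17 against 4.22, 4.35 and 4.53 (-0.92 ± 0.26, adjusted p = 0.378; -1.09 ± 0.19, adjusted p = 0.0794 without FP-high 1).

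Among 22 transcription factors of intestinal identity, Hnf4g, a nuclear receptor of enterocytes, was the only call and only without FP-high 1. In that fit 0.0734% of all probe sets were called lower. Hnf4g was at 5.35, 9.84, 9.94 and 10.02 in the normal arrays and at 7.84, 8.44 and 8.35 in the adenomas. FP-high 2, 3 and 4 lay close together and FP-high 1 read more than 2 log2 units below any other array, so the difference was -1.72 ± 0.18 without it (adjusted p = 0.0251) and -0.58 ± 1.14 with it (adjusted p = 0.791). The remaining lower genes have varied roles. Otc, a urea cycle enzyme that intestinal cells use to make citrulline, was at 5.10, 7.31, 7.63 and 7.68 against 5.49, 5.47 and 5.85 (-1.93 ± 0.17, adjusted p = 0.0167 without FP-high 1; -1.33 ± 0.62 with it). Arg2, the mitochondrial arginase, was at 5.35, 8.02, 8.55 and 8.29 against 5.40, 5.24 and 6.09 (-2.71 ± 0.26, adjusted p = 0.021; -1.98 ± 0.76 with it). Clic5, a protein of the microvillus base, differed by -1.52 ± 0.19 (adjusted p = 0.04), Idh3g, a subunit of mitochondrial isocitrate dehydrogenase, by -1.05 ± 0.14 (adjusted p = 0.0499) and Nabp2, which binds single-stranded DNA, by -1.04 ± 0.13 (adjusted p = 0.0417), all without FP-high 1. With it these were -0.95, 0.05 and -0.36.

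**Figure D5:**
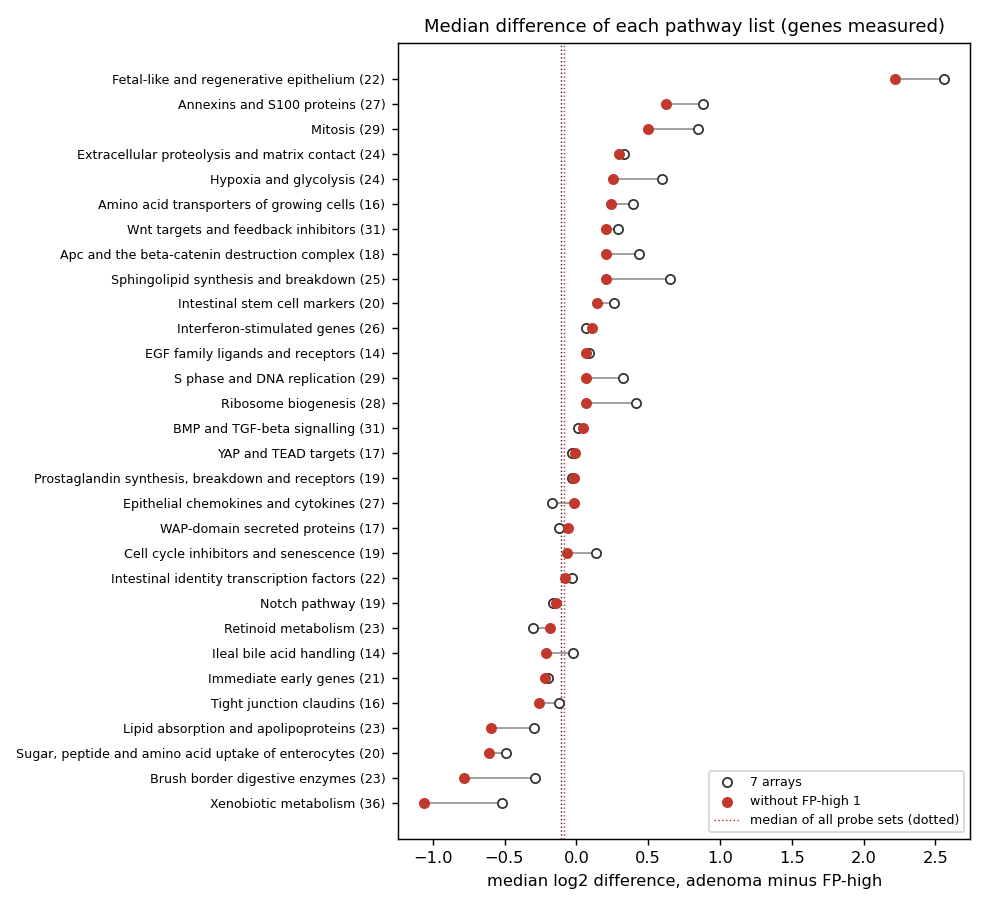
Median log2 difference (adenoma minus FP-high, x axis) over the measured members of each of the 30 pathway lists, on 7 arrays (open circles) and without FP-high 1 (filled circles), with dotted lines at the median of all probe sets. The fetal-like list lies farthest right at 2.56 and 2.22, and xenobiotic metabolism farthest left without FP-high 1 at -1.06.

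Growth-related lists lay above 0 on 7 arrays with no member called, and leaving out FP-high 1 shrank them. Of 29 mitosis genes, 27 were higher by mean in adenomas (23 without FP-high 1), against 40.3% of all probe sets (37.8%). Their median was 0.85 (0.50 without FP-high 1). Knl1, a kinetochore scaffold, was at 3.75, 5.27, 4.62 and 5.65 in the normal arrays and at 8.01, 7.03 and 7.05 in the adenomas (2.54 ± 0.49, adjusted p = 0.167; 2.18 ± 0.36, adjusted p = 0.0727 without FP-high 1). S phase genes had a median of 0.33 (0.07 without FP-high 1) and ribosome biogenesis genes one of 0.41 (0.07). Both medians changed sign when FP-high 1 was left out and the other arrays were quantile normalized. Mcm4, a helicase subunit, was at 1.14 ± 0.32 (0.89 ± 0.21 without FP-high 1) and Wdr75, a ribosomal RNA processing factor, at 1.61 ± 0.34 (1.34 ± 0.21), both with groups apart and adjusted p of 0.376 and 0.206. Hypoxia and glycolysis genes had a median of 0.60 (0.25). All adenomas were above all normal arrays for 6 of the 24 in each fit, against 6.88% of all probe sets (8.48% without FP-high 1). Slc2a1, which the rule named, was among them, at 5.10, 5.29, 5.88 and 5.64 against 6.44, 7.28 and 6.29. It differed by 1.19 ± 0.31 (adjusted p = 0.322), or 1.07 ± 0.30 without FP-high 1 (adjusted p = 0.199). Hif1a, the oxygen-regulated factor, was at 4.60, 6.45, 7.66 and 7.17 against 9.51, 9.19 and 9.18 (2.82 ± 0.67, adjusted p = 0.286; 2.20 ± 0.31, adjusted p = 0.0537 without FP-high 1), whereas the glycolytic enzymes Ldha and Pgk1 overlapped between the groups.

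Matrix contact and signalling lists held a few calls, where 0.211% of all probe sets were called higher, and 0.372% without FP-high 1. Besides Serpinb5, the matrix list of 24 genes had Itgav, the integrin alpha V chain, at 4.81, 4.92, 4.81 and 5.14 in the normal arrays and 6.18, 6.73 and 6.36 in the adenomas (1.50 ± 0.20, adjusted p = 0.0483; 1.47 ± 0.18, adjusted p = 0.0406 without FP-high 1). Without FP-high 1, Itga2, a collagen-binding integrin chain, joined them at 1.60 ± 0.20 (adjusted p = 0.0401; 1.80 ± 0.28, adjusted p = 0.0957 with it). Ptger4, a prostaglandin E2 receptor, was at 4.79, 6.04, 6.17 and 6.07 against 6.93, 6.93 and 6.88 and was called only without FP-high 1 (0.82 ± 0.11, adjusted p = 0.0479; 1.15 ± 0.35, adjusted p = 0.419 with it). Hpgd, which breaks prostaglandins down and was named after its values were seen, was at 6.42, 8.70, 10.07 and 9.58 against 8.02, 8.11 and 7.91 (-1.44 ± 0.33, adjusted p = 0.159 without FP-high 1; -0.68 ± 0.80, adjusted p = 0.669 with it). Il33, an alarmin, missed the threshold in both fits (2.44 ± 0.33, adjusted p = 0.0537; 2.43 ± 0.35, adjusted p = 0.0567).

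The lists of EGF ligands and receptors, BMP and TGF-beta, Notch, claudins, interferon-stimulated genes, immediate early genes and cell cycle inhibitors had 0 calls in either fit, with medians from -0.20 to 0.14 on 7 arrays. The members with the smallest p pointed both ways. Every adenoma was above every normal array for Adam17, the sheddase of EGF ligands (1.40 ± 0.26, adjusted p = 0.16; 1.29 ± 0.24 without FP-high 1), and Errfi1, an inhibitor of the EGF receptor (2.10 ± 0.51, adjusted p = 0.289; 1.73 ± 0.39). The same held for the Smad corepressor Skil (1.25 ± 0.22, adjusted p = 0.133; 1.25 ± 0.21 without FP-high 1), the pore-forming claudin Cldn2 (1.17 ± 0.27, adjusted p = 0.26; 0.97 ± 0.16) and Ifitm1, an interferon-induced membrane protein (2.76 ± 0.51, adjusted p = 0.156; 2.44 ± 0.43). Every adenoma was below every normal array for the TGF-beta family ligand Gdf11 (-0.88 ± 0.22, adjusted p = 0.305; -0.85 ± 0.21 without FP-high 1), the claudin Cldn15 (-0.52 ± 0.18, adjusted p = 0.485; -0.58 ± 0.15) and the immediate early factor Egr2 (-0.45 ± 0.17, adjusted p = 0.509; -0.50 ± 0.13). Over all probe sets 6.88% lay above and 10.6% below in this way.

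Among all 14 marker lists, 1 gene was called, where 0.211% of all probe sets were called higher (0.372% without FP-high 1). Mcpt2, a protease of mucosal mast cells, was at 2.91, 2.73, 2.61 and 2.90 in the normal arrays and at 5.98, 7.42 and 6.02 in the adenomas (3.68 ± 0.36, adjusted p = 0.0184; 3.72 ± 0.39, adjusted p = 0.0241 without FP-high 1). The other 11 mast cell markers, among them the carboxypeptidase Cpa3 and the IgE receptor chain Fcer1a, lay between 2.21 and 5.35 in all arrays with none called. In each fit 8 of the list's 12 members were below 0, where 40.3% of all probe sets lay above 0 (37.8% without FP-high 1). Hdc, the enzyme that makes histamine, had every adenoma below every normal array, at 4.64, 4.37, 4.55 and 4.4 against 3.99, 3.76 and 3.70 (-0.67 ± 0.17, adjusted p = 0.31; -0.62 ± 0.13 without FP-high 1). Cpa3 was at 3.94, 3.64, 2.95 and 2.96 against 4.4, 3.20 and 3.08. Mcpt1, the related protease, overlapped between the groups at 3.81, 3.04, 2.21 and 2.60 against 4.95, 5.29 and 2.75, and the mean level of the list was 3.33 to 4.11 in normal arrays and 3.58 to 4.00 in adenomas.

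T cell and intraepithelial lymphocyte markers were lower by mean in adenomas for 16 of 17 members (median -0.45, or -0.43 without FP-high 1, with 0 called). Over all probe sets 40.3% of differences lay above 0, and 37.8% without FP-high 1. List means were 4.69 to 5.34 in normal arrays and 4.17 to 4.57 in adenomas. The T cell receptor chains Cd3d and Cd3g overlapped between the groups. Fibroblast and smooth muscle markers had list means of 4.45 to 4.83 and 4.50 to 5.0, and macrophage markers of 4.50 to 5.28 and 4.42 to 4.64, with 0 called. The part of these cells in the results was not tested. Within the epithelium, Paneth cell markers had a median of -0.34 (-0.71 without FP-high 1), with 0 of 11 called. By mean, 7 of the 11 were lower in adenomas, and 8 without FP-high 1. In the fit without FP-high 1, 7 had an unadjusted p under 0.05, and the lowest adjusted p was 0.153. Of all 21789 probe sets, 1680 were higher and 1737 lower at that unadjusted level in the same fit. The Paneth cell markers with the smallest p on 7 arrays lay above in adenomas, but they did not have the smallest p without FP-high 1. Pla2g2a, a secreted phospholipase of Paneth cells, was at 4.60, 7.54, 6.27 and 5.53 against 9.37, 7.59 and 7.84 (2.28 ± 0.73, adjusted p = 0.44; 1.82 ± 0.65 without FP-high 1), and Habp2 differed by 0.55 ± 0.27 (0.66 ± 0.26 without FP-high 1). Lyz1, the Paneth cell lysozyme, was at 8.75, 13.08, 12.85 and 12.10 against 9.13, 10.94 and 11.81 (-2.05 ± 0.67, adjusted p = 0.247 without FP-high 1; -1.07 ± 1.13, adjusted p = 0.641 with it). Muc2, the goblet cell mucin, was at 4.86, 9.49, 9.07 and 8.41 against 9.85, 9.24 and 10.01 (0.71 ± 0.33, adjusted p = 0.354 without FP-high 1; 1.74 ± 1.05, adjusted p = 0.576 with it). Lyz1 and Muc2 were named after their values were seen.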

How the data were processed

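RNA levels were read on 7 arrays, 3 of adenomas and 4 of FP-high normal epithelium, grouped by title. The deposited log2 values were made by the authors with Affymetrix Expression Console and Transcriptome Analysis Console, per the submitters' processing notes, and Command Console, per the series design text. Software versions, background correction and normalization were not given in the sources used here. Array medians lay between 4.56 and 4.65, while the spread of values differed between arrays, so the normalization did not equalise their distributions. Of 35556 probe sets, 21789 had 1 gene symbol in the platform annotation and were tested; 1621 with several symbols and 12146 with none were left out of the main fit. No per-sample column was left out.

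Group means were compared with limma 3.58.1 in R 4.3.3 (lmFit and eBayes, two-sided), with Benjamini-Hochberg adjustment over all 21789 probe sets and a call at adjusted p under 0.05; p-values printed as adjusted p come from these fits. With 3 against 4 arrays an exact permutation test cannot go below p = 0.0571, so none is given. The number of arrays limits the precision, and level SEs are limma's. A gene with several probe sets is represented by the one with the highest mean over the 7 arrays. Genes were named by rule: the 12 largest differences per direction among genes called with and without FP-high 1 and not overlapping, filled to 6 by smallest p where fewer qualified, and up to 4 called members of each list by size, filled to 2 by smallest p, besides Apc, Xist, Eif2s3y, Ddx3y (not among the probe sets tested) and Epcam as checks. Any other gene given with values was chosen after its values were seen. On the lower side no gene qualified, and the fill named Gm1966, Xxylt1, Ugt2a3, Fbp1, Mlxipl and Olfr1049 (adjusted p 0.0925 to 0.284). The arrays compared, the 30 pathway lists and 14 marker lists were chosen with earlier results of these data known.

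Groups share replicate numbers in the labels, which do not say what a number stands for. Deviations from group means correlated at 0.218, 0.100 and 0.212 in the pairs numbered 1, 2 and 3. Each is above 0.1, the second only just, and 0.1 was the bound for adding a fit with the number as a block. No label states pairing. Xist was at 3.61, 3.05 and 2.65 in FP-high 1, 2 and 3 and at 9.71, 8.88 and 8.98 in adenomas 1, 2 and 3. Each same-numbered pair thus differed in this sex-linked transcript, and whether a number marks a shared animal is not known. FP-high 2 correlated better with adenoma 3 (0.190) than with adenoma 2. The fit with the number as a block is therefore given beside the results. Alternatives were single arrays left out, quantile normalization, scaling to the same median and MAD, array weights, trended robust moderation, the replicate block as fixed or random, other sets of probe sets and a minimum difference of 1. Promoter windows were cut from RefSeq (GRCm38.p6).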

Additional observations from a re-analysis of the deposited data

Results flagged for a closer look

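In the 4 FP-high arrays, 148 values were checked for a sample far from the others (the named genes and the spread within arrays), and 23 passed Dixon's 95% critical value for the gap to the nearest array over the whole range. Chance flags about 1 in 20 such groups, but some of these genes were named for a call made only without FP-high 1 or after their values were seen. The number flagged can therefore not be set against that rate. FP-high 1 was the array that stood apart in 20 of the 23, as the lowest in 15 and the highest in 5. Where it was lowest the ratio was 0.90451 for Ptger4, 0.97288 for Egr2, 0.88922 for Krt18, 0.88704 for Krt8, 0.907 for Sdc1, 0.83316 for Arg2, 0.82905 for Gm11437 and 0.85411 for Otc. It was also 0.96094 for Hnf4g, 0.86769 for Clic5, 0.92493 for Idh3g, 0.89759 for Nabp2, 0.86675 for Olfm4, 0.89058 for Tff3 and 0.90225 for Marcksl1. Where it was highest the ratio was 0.87439 for Sptssb, 0.91031 for Mlxipl, 0.93517 for Nts, 0.90595 for Cdh5 and 0.8942 for Klf1. FP-high 3 stood apart as the highest array for Capn9, a goblet cell protease (0.87769), and as the lowest for the gut hormone Pyy (0.96266). FP-high 4 stood apart as the highest for Xist (0.83962), at 8.64 against 2.65 to 3.61. The ratio for the spread within arrays did not pass.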

How the results depend on the processing

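On 7 arrays the 46 higher calls became 81 without FP-high 1, and 75 without FP-high 1 after quantile normalization of the other 6 arrays, a setting added after seeing the data. They became 26 with quantile normalization, 28 with median and MAD scaling, 259 with array weights (FP-high 1 had a weight of 0.079) and 0 with the replicate block as fixed. They stayed within 1.5 times under 6 other settings (38 to 53 calls), the random replicate block giving 53. Fits without 1 array ranged from 5 to 81. The 0 lower calls became 16 without FP-high 1, 28 when quantile normalization was added to that, and 46 with array weights; fits without 1 array gave 0 to 16. Starting from the 6 arrays without FP-high 1, leaving out a further array, also added after seeing the data, gave 23 to 76 higher calls (81 before) and 1 to 14 lower calls (16 before). None of the 24 named genes called on 7 arrays changed direction in any fit, a direction that their calls on 7 arrays largely fix. List medians that changed sign without FP-high 1 were those of cell cycle inhibitors, epithelial cells and neutrophils, 3 of 44. Other settings changed more. Quantile normalization changed 7, and 8 when added to leaving out FP-high 1, S phase and ribosome biogenesis among them. Leaving out FP-high 4, median and MAD scaling and the fixed block changed 6 each. Detection calls per probe set were not used here, so dim levels have no stated background limit.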

Other observations

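Further genes called higher in both fits, chosen after their values were seen, had other roles. Capn2, the catalytic subunit of calpain 2, was at 4.33, 4.34, 3.87 and 3.99 in FP-high 1 to 4 and at 6.69, 7.21 and 6.92 in the adenomas (2.80 ± 0.21, adjusted p = 0.00719; 2.87 ± 0.19 without FP-high 1). Fam111a, a protease that acts at DNA replication forks, was at 3.87, 4.08, 4.42 and 4.07 against 6.72, 6.41 and 6.52 (2.44 ± 0.19, adjusted p = 0.00785; 2.37 ± 0.16). Aim2, a sensor of cytosolic DNA, was at 5.72, 4.62, 5.24 and 4.97 against 8.94, 8.07 and 8.0 (3.20 ± 0.34, adjusted p = 0.0211; 3.39 ± 0.30). In all 3 the groups were well apart. Pik3r3, a regulatory subunit of phosphoinositide 3-kinase, rose by 2.66 ± 0.24 (adjusted p = 0.0153; 2.75 ± 0.21 without FP-high 1), the lysosomal protease Ctsl by 2.63 ± 0.27 (adjusted p = 0.0197; 2.57 ± 0.28) and the iron carrier Trf by 1.92 ± 0.20 (adjusted p = 0.0184; 1.91 ± 0.18). None was called with the fixed replicate block (adjusted p 0.238 to 0.304), and Capn2 was called in 5, Fam111a in 3 and the other 4 in 1 or 2 of the 7 fits that left out an array. Marcksl1, a substrate of protein kinase C, passed only without FP-high 1 (2.19 ± 0.14, adjusted p = 0.00288; 2.56 ± 0.40, adjusted p = 0.0925 with it). Fosb, a subunit of AP-1, was at 5.73, 7.04, 6.55 and 5.76 against 4.83, 5.45 and 4.80, with no overlap and no call (-1.24 ± 0.37, adjusted p = 0.411; -1.42 ± 0.35 without FP-high 1).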
